A study of Mus musculus with 6 samples.

Results

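Hox genes encode homeodomain transcription factors that lie in 4 clusters in the mouse genome, and they were followed here in control and Ezh2 deficient mouse lymph node T cells. The members were 34 Hox genes taken by symbol, with every probe set whose platform annotation named a single one of them and with no filter on intensity. This gave 46 probe sets for 31 genes, of 45037 probe sets other than controls. Hoxa6, Hoxb8 and Hoxd4 had no probe set of their own. Expression was read on 6 single-colour Affymetrix arrays, of which 3 held total RNA of Ezh2 fl/fl lymph node T cells (the controls, with an Ezh2 gene flanked by loxP sites, as fl/fl is usually read) and 3 that of Ezh2 deficient lymph node T cells. The labels do not say which Cre driver, if any, removed the gene, nor the animals' age or sex, nor whether the arrays came from separate animals. P-values therefore cover only how these 6 samples vary, and some of that may be technical. In such bulk samples fewer cells of a type and less RNA per cell cannot be told apart.

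Within each cluster the genes run in the order of the body axis they pattern, and genes at the same place in different clusters are paralogues that share a number. Low numbers act in the hindbrain and neck, middle numbers in the trunk, and high numbers at the tail end, in the limbs and in the genital tract. Polycomb repressive complex 2, whose catalytic subunit is Ezh2, methylates lysine 27 of histone H3, and the Hox clusters are its best known targets in cells that do not use them. In blood formation, Hox genes of the HoxA and HoxB clusters are active in stem and progenitor cells and are shut down as lymphocytes mature.

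Ezh2 mRNA, the check of the labels, had normalised intensities of 579, 684 and 801 on control arrays and 282, 289 and 276 on deficient arrays, listed like all such triplets in the order of the replicates. The groups did not overlap, and the deficient mean was 41.0% of the control mean (log2 difference -1.16, SE 0.13, limma adjusted p = 0.241, unadjusted limma p = 2.05e-05, exact permutation p = 0.10, the smallest that 3 arrays against 3 allow). The signal stayed above the array floor, the level under which 95% of reference silent probe sets fall, on all 3 deficient arrays. Which part of Ezh2 is deleted is not labelled, and the probe set may lie outside it. All 9 measured T cell markers were above the floor in both groups, Cd3e, Cd3d and Cd3g among them. Cd8b1 on 1426170_a_at (log2 difference -0.17) and Cd8a on 1444078_at (-0.13) were lower on deficient arrays without overlap. The other Cd8a probe sets also had differences below 0, with overlapping groups. Of 6 fibroblast and stromal markers, cells in which many Hox genes stay active, 0 were above the floor in either group. Their summed level ran from 693 to 772 on control arrays and from 735 to 787 on deficient arrays. Limma called 0 of their 14 probe sets. Groups did not overlap for Col3a1 on 1427883_a_at (log2 difference 0.61) and Col1a1 on 1455494_at (0.29), which were higher on deficient arrays. The same held for Dcn on 1449368_at (-0.36) and Pdgfra on 1438946_at (-0.21), which were lower. Of 5 measured progenitor markers 1 was above the floor in both groups, Gata2, while Kit, Flt3, Cd34 and Tal1 were not. Gata2 passed through its probe set 1450333_a_at, with a mean of 392 over the arrays. Its probe set 1428816_a_at, with group means of 64.9 and 27.1, was below the floor on every array. Of the other cell types checked, 1 of 6 myeloid, 1 of 3 NK cell and 0 of 2 erythroid markers were above it in each group, and of 4 endothelial markers 1 passed on control arrays and 2 on deficient arrays. Over all marker lists, B cell markers among them, limma called 0 of 64 probe sets. At an unadjusted limma p under 0.05, 3 were higher (Cd22, H2-Ab1, Col3a1) and 4 lower (Cd8b1, Csf1r, Kit, Hba-a1). These are 10.9%, against 6.51% of all probe sets. The array of control replicate 1 was set off from the other 5, with a first principal component of 58.9 against -21.41 to -0.47 (24.7% of the variance).

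CpG dinucleotides are the feature of mammalian DNA that Polycomb complexes are best known to gather on, and the promoters of the Hox genes differ widely in how many they hold. The RefSeq promoter table for GRCm38.p6 held 24 windows for 22 of the 34 members, each from 250 bases before to 50 bases after a start site. For each cluster, the window of the member with the brightest probe set among those in the table is given here on the gene's strand, with each CG dinucleotide in capitals, to show how this density varies. The windows are chr6:52204538-52204837 (minus strand) for Hoxa5, chr11:96318017-96318316 (plus strand) for Hoxb4, chr15:103034145-103034444 (plus strand) for Hoxc4 and chr2:74711743-74712042 (plus strand) for Hoxd3.
Hoxa5: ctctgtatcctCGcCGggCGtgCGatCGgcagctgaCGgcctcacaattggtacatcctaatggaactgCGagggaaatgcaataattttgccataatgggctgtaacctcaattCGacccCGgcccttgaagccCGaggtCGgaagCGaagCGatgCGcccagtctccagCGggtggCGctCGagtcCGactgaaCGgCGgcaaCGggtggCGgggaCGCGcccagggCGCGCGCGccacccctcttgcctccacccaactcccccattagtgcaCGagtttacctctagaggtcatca
Hoxb4: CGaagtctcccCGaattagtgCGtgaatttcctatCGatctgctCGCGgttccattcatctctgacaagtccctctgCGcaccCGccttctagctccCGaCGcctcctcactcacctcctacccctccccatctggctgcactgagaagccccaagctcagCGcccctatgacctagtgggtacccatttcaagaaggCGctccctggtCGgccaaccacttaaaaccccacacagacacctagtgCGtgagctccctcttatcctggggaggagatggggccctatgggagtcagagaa
Hoxc4: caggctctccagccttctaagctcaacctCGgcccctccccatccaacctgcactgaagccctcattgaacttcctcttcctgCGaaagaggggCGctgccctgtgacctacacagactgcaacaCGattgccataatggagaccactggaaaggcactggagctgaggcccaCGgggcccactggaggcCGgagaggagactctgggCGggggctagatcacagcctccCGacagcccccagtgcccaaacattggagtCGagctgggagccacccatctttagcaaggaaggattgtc
Hoxd3: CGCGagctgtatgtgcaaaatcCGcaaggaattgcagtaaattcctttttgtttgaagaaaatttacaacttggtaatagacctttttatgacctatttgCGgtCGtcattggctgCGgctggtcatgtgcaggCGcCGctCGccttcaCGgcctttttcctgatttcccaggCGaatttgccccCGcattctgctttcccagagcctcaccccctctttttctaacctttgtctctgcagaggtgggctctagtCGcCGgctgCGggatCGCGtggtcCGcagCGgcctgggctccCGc
These windows held 29, 14, 9 and 20 CG dinucleotides, in that order, a motif that reads the same on both strands. The median was 14.5 over the Hox windows, which ranged from 4 to 45, and 7 over all 32851 windows of the table. A GC content of at least 50% together with a ratio of observed to expected CG of at least 0.6 was met by 11 of the 24 Hox windows (45.8%) and by 33.5% of all windows. Most of the Hox windows, and all 11 that met both limits, were of HoxA and HoxD members. Hoxc4 was the only HoxC member with a window. No measurement of these arrays bears on the promoters directly, so the counts describe the sequence alone.

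Nearly all Hox probe sets read at the level of genes that T cells do not use. As a reference for silence, 126 probe sets of olfactory, vomeronasal and bitter taste receptors and keratin associated proteins were taken. The floor of each array was set at their 95th percentile, which fell between 222 and 301. It was 291, 301 and 255 on control arrays and 222, 259 and 240 on deficient arrays. A probe set at the same level in both groups can thus be above the floor on deficient arrays alone. The median Hox probe set had a mean intensity of 76.5 over the 6 arrays (quartiles 43.7 and 109). The reference probe sets had a median of 73.9 (quartiles 28.8 and 121) and all probe sets a median of 168. Of the 46 Hox probe sets, 1 (2.17%) was above the floor on all 3 Ezh2 fl/fl arrays and 1 on all 3 deficient arrays, the same probe set of Hoxa5. Of all probe sets, 34.0% passed on control arrays and 37.8% on deficient arrays. Of the 126 reference probe sets, 3 (2.38%) and 4 (3.17%) passed, and the brightest averaged 530 over the arrays. The Hox share was thus of the size seen for the silent reference. Another 2 Hox probe sets passed on 1 or 2 arrays, and 43 were below the floor on all 6. Probe sets differ in how strongly they bind, so a level against the floor says whether a transcript was told apart from silence and gives no order of abundance between genes.

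**Figure D1:**
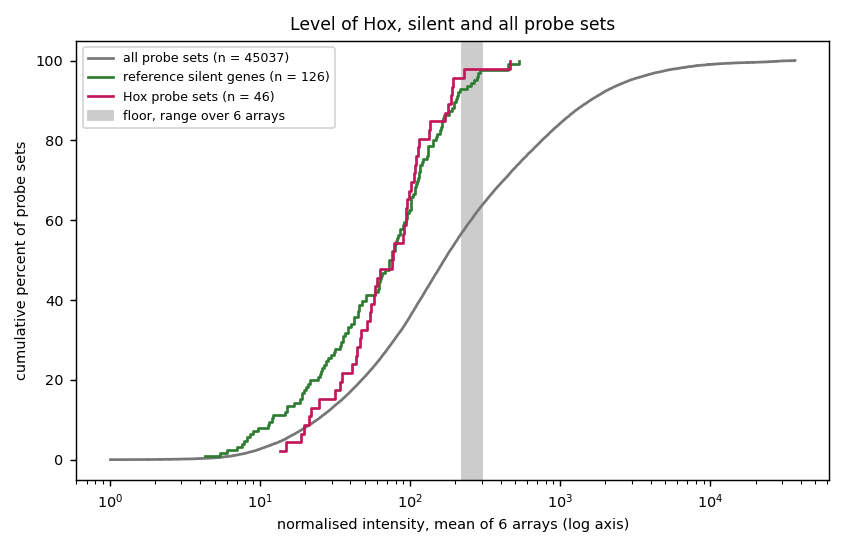
Cumulative percent of probe sets against the mean normalised intensity of 6 arrays (log axis) for Hox probe sets, reference silent genes and all probe sets, with the range of the array floors in grey. The Hox curve runs beside that of the silent genes, with medians of 76.5 and 73.9, and left of the curve of all probe sets, with a median of 168.

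Hoxa5, which patterns the cervical and upper thoracic body and the lung, was the 1 gene above the floor. Its probe set 1443803_x_at read 524, 384 and 517 on control arrays and 530.3, 479 and 362 on deficient arrays, and the groups overlapped (log2 difference -0.054, 95% interval -0.44 to 0.33). The _x_at ending marks a probe set that can match other transcripts, and no accession is given for it in the platform annotation. The other Hoxa5 probe set, 1448926_at, which has an accession in that annotation, was below the floor on all 6 arrays, at 109, 109 and 124 on control arrays and 106, 109 and 78.0 on deficient arrays. The 2 probe sets of Hoxa5 thus gave different answers to whether the gene was detected. Hoxb7, a gene of the middle trunk, reached the floor on 1 array of each group, with 219, 229.9 and 291 on control arrays and 186, 198 and 243 on deficient arrays. Hoxa11, known for limb, kidney and uterus development, did so on Ezh2 deficient replicate 3 alone, with 137, 183 and 189 against 166, 161 and 242. Under a floor at the 99th percentile of the reference, 0 genes passed in either group, and under the 40th percentile of all probe sets, 7 of 31 passed in each. Most probe sets of an array lie above that last floor by construction.

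**Figure D2:**
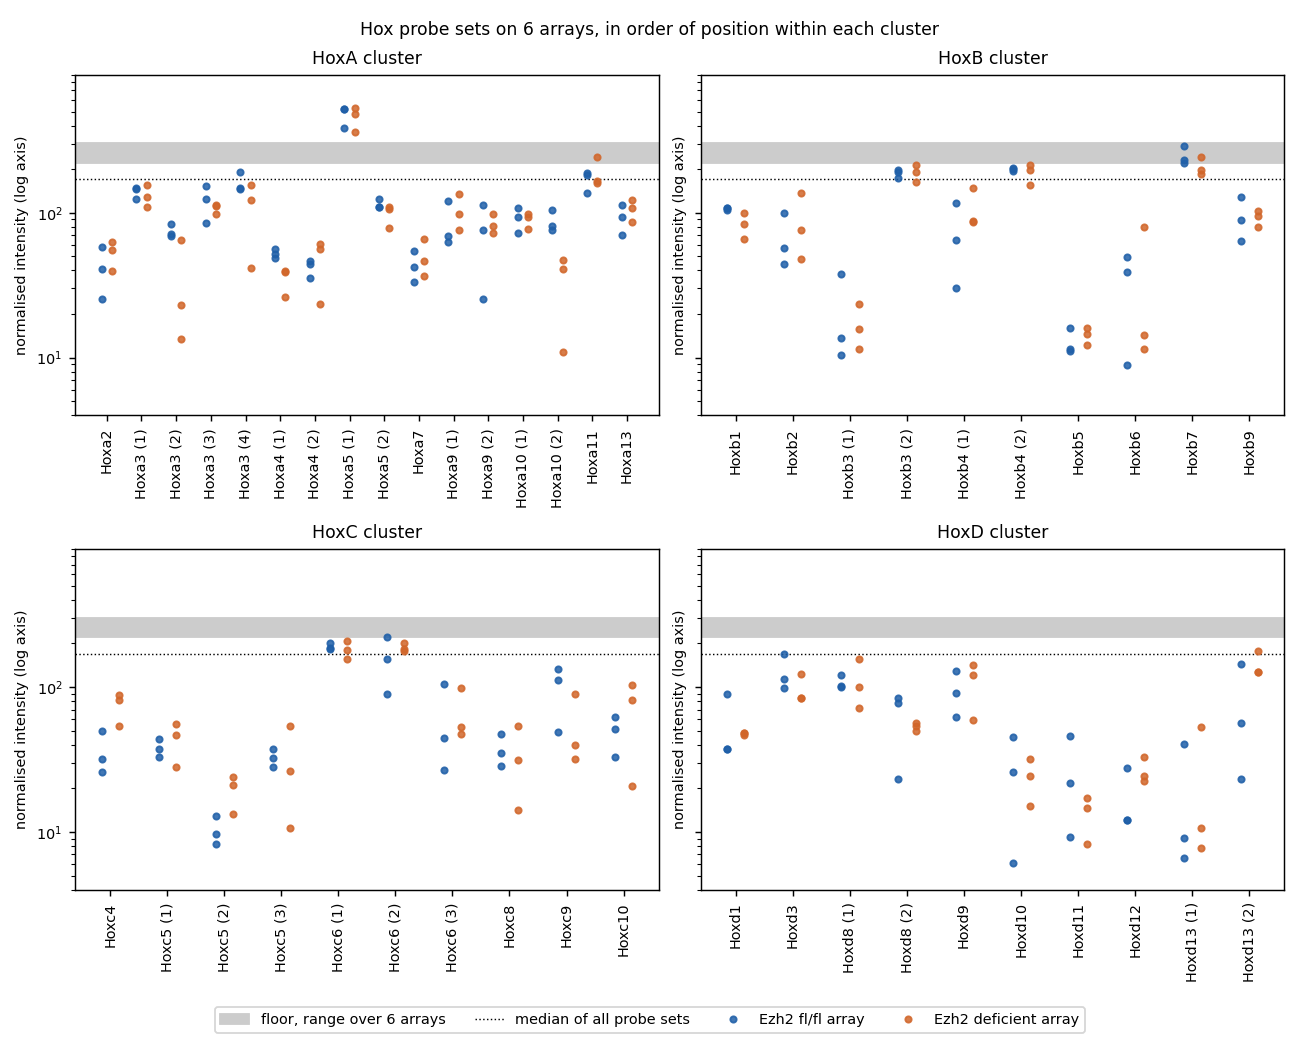
Normalised intensity (log axis) of each of the 46 Hox probe sets on the 3 Ezh2 fl/fl arrays (blue) and the 3 Ezh2 deficient arrays (orange), by cluster and in order of position, numbered within a gene in order of probe set name. The grey band is the range of the array floors, 222 to 301, and the dotted line the median of all probe sets, and Hoxa5 (1) is the probe set above the band in every array.

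Among the anterior genes, with numbers 1 to 4, the 16 probe sets had mean intensities from 18.8 to 194. Hoxb1, which gives the facial nerve segment of the hindbrain its identity, averaged 106 ± 1.64 and 83.4 ± 17.2 in the Ezh2 fl/fl and deficient arrays (SD, n = 3 each, as for all such pairs that follow). Hoxd1 averaged 54.8 ± 30.2 and 47.9 ± 1.04. Hoxa2, which specifies the skeleton of the second pharyngeal arch, averaged 41.4 ± 16.4 and 52.6 ± 11.7 and its paralogue Hoxb2 66.9 ± 28.6 and 87.0 ± 45.4. Hoxa3 is needed in the pharyngeal pouches that form the thymus, the organ that makes T cells, and its 4 probe sets had control means of 74.6 to 162. The brighter Hoxb3 probe set, 1456229_at, averaged 188 ± 12.4 and 189 ± 24.5, the dimmer one 20.6 ± 15.0 and 16.9 ± 6.12, and Hoxd3, which shapes the upper neck vertebrae, 127 ± 37.7 and 97.0 ± 22.6. Hoxb4, known for expanding blood stem cells when it is overexpressed, averaged 200.2 ± 5.18 and 188 ± 29.8 on 1 probe set and 70.2 ± 43.0 and 108 ± 35.8 on the other. The Hoxa4 probe set 1427354_at averaged 42.1 ± 5.89 and 46.9 ± 20.6. None of these was above the floor on any array. The gene spans of Hoxa3, Hoxb3 and Hoxd3 overlap those of neighbouring members in the RefSeq table, so a probe set named for one of them can lie in a transcript that also covers another.

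In the middle of the clusters, with numbers 5 to 8, the 15 probe sets had mean intensities from 13.6 to 466, and from 13.6 to 228 without the brighter Hoxa5 probe set. Hoxb5 was dim on every array, at 12.9 ± 2.82 and 14.2 ± 1.90. Hoxb6, a gene of trunk mesoderm, averaged 32.5 ± 21.0 and 35.3 ± 38.9, with 1 deficient array at 80.2 and the others at 11.4 and 14.3. Hoxa7, which is active in immature blood cells, averaged 43.3 ± 10.7 and 49.6 ± 15.3. Hoxc6, a gene of the thoracic body, averaged 191 ± 9.68 and 182 ± 26.0 on its probe set 1427361_at and 155 ± 66.1 and 187 ± 12.3 on 1427362_x_at. The last Hoxc6 probe set, 1427454_at, averaged 58.9 ± 41.0 and 66.5 ± 28.3. Hoxc5 had 3 dim probe sets, the brightest at 38.1 ± 5.43 and 43.4 ± 14.2. Hoxc8, which patterns the lower ribs, averaged 37.1 ± 9.61 and 33.4 ± 20.1, and Hoxd8 averaged 107 ± 12.3 and 109 ± 42.8 on 1431099_at and 61.9 ± 33.6 and 53.5 ± 3.63 on 1433638_s_at. A probe set shared by Hoxb7 and Hoxb8 averaged 101 ± 13.8 and 107 ± 37.1, below the floor on every array. Of the probe sets shared by Hoxd3 and Hoxd4, 1421537_at averaged 50.4 ± 10.2 and 47.1 ± 9.19 and 1450209_at 18.6 ± 12.7 and 10.4 ± 1.36.

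The posterior genes, with numbers 9 to 13, gave 15 probe sets with mean intensities from 19.6 to 179.7. Hoxa9, a driver of blood progenitor growth and of leukaemia when it stays on, averaged 84.4 ± 32.2 and 103 ± 29.7 on 1421579_at and 71.5 ± 44.2 and 84.3 ± 13.1 on 1455626_at, below the floor on all arrays. Its paralogue Hoxb9 averaged 94.0 ± 32.9 and 92.4 ± 11.5 and Hoxd9 94.0 ± 33.1 and 108 ± 43.4. Hoxa10, a gene of the uterus and of myeloid progenitors, averaged 91.5 ± 18.0 and 89.7 ± 10.9 on its brighter probe set. Hoxc10, a gene of the hindlimb level, averaged 48.7 ± 14.5 and 68.6 ± 42.7 and Hoxd10 25.8 ± 19.6 and 23.8 ± 8.39. Hoxd11, which shapes the forearm with Hoxa11, averaged 25.8 ± 18.8 and 13.4 ± 4.60, and Hoxd12 17.3 ± 9.03 and 26.5 ± 5.43. Hoxa13 and Hoxd13 act in digits and the genital tract. Hoxa13 averaged 92.3 ± 21.7 and 105 ± 18.6, and the dimmer Hoxd13 probe set 18.8 ± 19.0 and 23.6 ± 25.1, with the highest values on Ezh2 fl/fl replicate 3 and Ezh2 deficient replicate 3.

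The comparison the design poses is whether Hox transcripts differ between Ezh2 deficient and control T cells. Hox genes gave no call. With the adjusted p held under 0.05, limma called 0 of 46 higher and 0 lower, where 0.0% of all probe sets were called higher and 0.00222% lower (1 probe set, of Fam241a), and the smallest adjusted p was 0.677. At an unadjusted p under 0.05 there was 1 higher (2.17%) and 2 lower (4.35%), where 3.43% of all probe sets were higher and 3.08% lower. The groups did not overlap for 2 higher and 4 lower Hox probe sets (4.35% and 8.70%), where the share of all probe sets was 6.07% and 6.08%, or 12.2% in either direction. The Hox shares are thus of the size seen over the whole array, from counts of at most 4. Of the 46 differences, 22 were above 0 and 24 below, with a median of -0.010, beside 49.3% above 0 and a median of -0.0030 over all probe sets. The median of the Hox probe sets on each array, set against the control mean, was -0.0013, -0.025 and -0.015 on control arrays and -0.015, -0.046 and -0.025 on deficient arrays on the log2 scale.

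The absence of a call leaves a range for each member, which the 95% intervals give on the log2(intensity + 43.3) scale. The upper end lay below a log2 difference of 1 for 43 of the 46 probe sets, and the remaining 3 were a probe set each of Hoxd13 (-0.056 to 1.63), Hoxb4 (-0.26 to 1.18) and Hoxc4 (0.12 to 1.04). Added to the control mean and turned back to intensity, the upper end stayed below the lowest floor of the deficient arrays, 222, for 38 probe sets, and the median of these upper levels was 133. Of the other 8, the Hoxa5 probe set above the floor had an upper level of 605, and the rest reached at most 304. These bounds count the spread between arrays and not the probe sets' binding, and the added 43.3 shrinks the differences of dim probe sets.

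**Figure D3:**
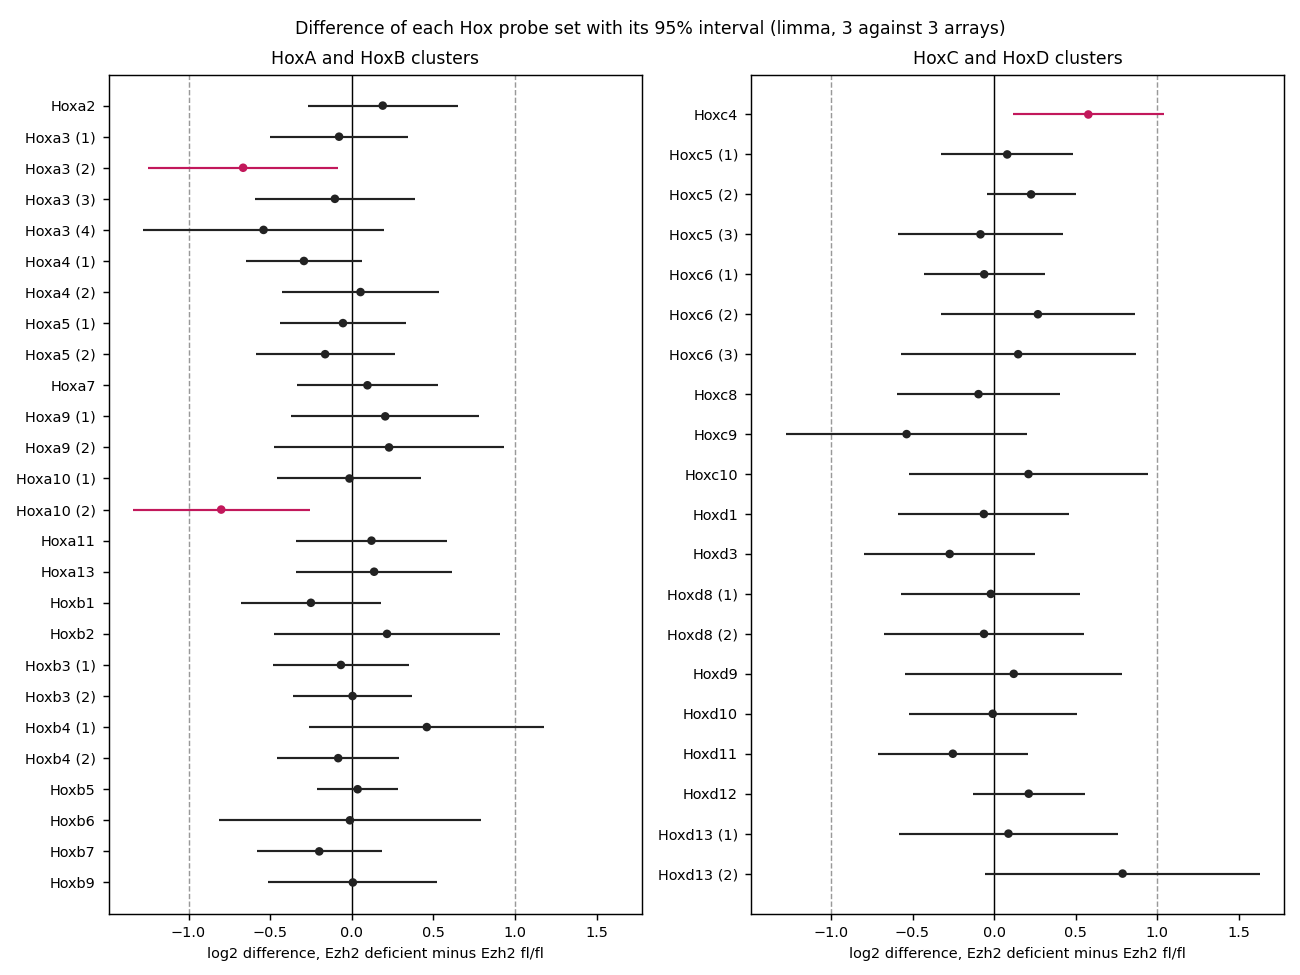
Log2 difference of each Hox probe set (Ezh2 deficient minus Ezh2 fl/fl, points) with its 95% interval from limma over 3 against 3 arrays (lines), with dashed lines at -1 and 1. The 3 probe sets whose interval leaves out 0, of Hoxa3, Hoxa10 and Hoxc4, are in magenta, and none passed over all probe sets.

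On the lower side, the smallest p belonged to the Hoxa10 probe set 1446408_at, which read 75.7, 81.0 and 104 on control arrays and 47.2, 10.8 and 41.2 on deficient arrays. All 3 deficient arrays were below all 3 controls (log2 difference -0.80, SE 0.23, limma adjusted p = 0.677). The unadjusted limma p was 0.00939, and it stayed under 0.05 in each of 6 fits with 1 array dropped, with log2 differences from -0.94 to -0.57. The other Hoxa10 probe set, 1431475_a_at, read 72.4, 108 and 93.8 against 93.9, 77.3 and 97.9, with groups that overlapped and a log2 difference of -0.014 (95% interval -0.46 to 0.43). Both probe sets were below the floor on every array.

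Next came the Hoxa3 probe set 1429398_at, at 84.0, 70.9 and 68.8 on control arrays and 23.1, 13.3 and 65.2 on deficient arrays (log2 difference -0.67, SE 0.25, limma adjusted p = 0.738). The groups did not overlap, but Ezh2 deficient replicate 3 sat just under the lowest control, and the unadjusted p under 0.05 held in 1 of 6 fits with 1 array dropped, the one without that replicate. The other Hoxa3 probe sets had log2 differences of -0.54, -0.10 and -0.078, all below 0 with overlapping groups. The Hoxa4 probe set 1420226_x_at read 51.5, 55.9 and 49.0 against 39.4, 38.9 and 26.1 without overlap (log2 difference -0.29, limma adjusted p = 0.798), while 1427354_at was at 0.054. Hoxb1 also did not overlap, with 108, 105 and 107 on control arrays and 100.2, 65.8 and 84.3 on deficient arrays (log2 difference -0.25, limma adjusted p = 0.855). Outside Hoxa3, the largest negative difference with overlapping groups was that of Hoxc9, a gene of the thoracic spinal cord, at 98.3 ± 44.3 and 53.9 ± 31.5 (log2 difference -0.54, limma adjusted p = 0.813).

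On the higher side, Hoxc4, which B cells use during antibody diversification, read 32.1, 25.9 and 49.4 on control arrays and 53.8, 82.0 and 88.5 on deficient arrays. The groups did not overlap (log2 difference 0.58, SE 0.20, limma adjusted p = 0.707). Its unadjusted limma p was 0.0205 and stayed under 0.05 in 2 of 6 fits with 1 array dropped. B cell markers are given beside it: 1 of 5 measured ones was above the floor on all control arrays and 2 on all deficient arrays, their summed level ran from 979 to 1112 and from 1104 to 1211, and the median log2 difference of their 8 probe sets was 0.35. The groups did not overlap for the Cd22 probe set 1419769_at, at 14.3, 6.19 and 5.63 against 25.1, 30.5 and 39.2 (log2 difference 0.53, SE 0.13, limma adjusted p = 0.604), and for the Pax5 probe set 1454401_at, at 89.3, 112 and 119 against 123, 127 and 193 (log2 difference 0.33, SE 0.21, limma adjusted p = 0.824), both below the floor on every array. Other B cell probe sets went the other way. Cd79b, the marker above the floor in both groups, averaged 402 ± 74.1 and 369 ± 44.1 (log2 difference -0.10). The Ms4a1 probe set 1423226_at averaged 205 ± 73.1 and 181 ± 28.0 (log2 difference -0.12), both with overlapping groups. The part of B cells in the Hoxc4 values was not tested. Hoxd13 on 1440626_at had the largest positive difference of the 46, with 145, 23.3 and 56.3 against 128, 127 and 178 (log2 difference 0.79, SE 0.36, limma adjusted p = 0.78). Its groups overlapped, since Ezh2 fl/fl replicate 1 stood above 2 of the 3 deficient arrays. Without that replicate the log2 difference was 1.18 at an unadjusted limma p of 0.00301. This was the 1 of 6 fits with 1 array dropped whose p fell under 0.05, and the log2 differences ran from 0.44 to 1.18. The other Hoxd13 probe set, 1422239_at, was at 0.088. The Hoxc5 probe set 1450832_at did not overlap either, at 12.8, 8.32 and 9.61 against 24.0, 13.3 and 21.1 (log2 difference 0.23, limma adjusted p = 0.794), while its other probe sets were at 0.080 and -0.084. The Hoxc4, Hoxd13 and Hoxc5 values were below the floor on every array.

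The counts of these small differences moved when an array was left out. The 3 probe sets at an unadjusted p under 0.05 became 1, that of Hoxa10, without control replicate 2, 2 without deficient replicate 2, and 3 or 4 in the other fits. In these fits 5.44% to 6.97% of all probe sets had such a p. The 6 probe sets without overlap became 11 when control replicate 1, control replicate 3 or deficient replicate 3 was dropped and 10 when deficient replicate 2 was, where 2 arrays against 3 leave 21.5% to 23.2% of all probe sets without overlap. Of the 11 genes with more than 1 probe set, 6 had all of them on the same side of 0 (Hoxa3, Hoxa5, Hoxa10 and Hoxd8 below, Hoxa9 and Hoxd13 above), and Hoxa4, Hoxb3, Hoxb4, Hoxc5 and Hoxc6 had them on both sides.

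By cluster, the median difference lay between -0.034 and 0.11 on the log2 scale. The HoxA cluster, on chromosome 6, had 7 of 16 probe sets higher (median -0.034), HoxB, on chromosome 11, had 5 of 10 (median -0.0033), and HoxD, on chromosome 2, had 4 of 10 (median -0.014). HoxC, on chromosome 15, had 6 of 10 higher and a median of 0.11. The median intensity of the HoxC probe sets was 44.3, 42.2 and 42.9 on control arrays and 49.8, 67.9 and 68.6 on deficient arrays, so that these medians did not overlap between the groups. Only Hoxc4 and Hoxc5 among the HoxC members had a probe set whose own groups did not overlap, and the HoxC median turned to -0.017 without Ezh2 fl/fl replicate 3. The medians of the other clusters overlapped between groups, at 75.0 to 99.1 over the 6 arrays for HoxA, 54.0 to 103 for HoxB and 38.9 to 65.4 for HoxD.

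By position along the clusters, 6 of 16 anterior, 6 of 15 middle and 10 of 15 posterior probe sets were higher on deficient arrays, with medians of -0.072, -0.020 and 0.12. The posterior count was 9 with the deposited scaling and with median centring, and dropping deficient replicate 3 gave 7 and a median of -0.0049. The anterior count was 9 without control replicate 2, and the middle count was 9 when control replicate 1, control replicate 2 or deficient replicate 3 was dropped. No difference between the positions was tested. Of the 12 positions with at least 2 measured members, the brightest probe sets of the members had the same sign at 5 (positions 1, 2, 6, 8 and 13) and both signs at 7, and the count of 5 was 6 with the deposited scaling and with median centring. Those 5 were among the 7 positions with exactly 2 measured members. At position 13, Hoxa13 was at 0.14 and Hoxd13 at 0.79. At position 9, Hoxa9, Hoxb9, Hoxc9 and Hoxd9 were at 0.20, 0.0067, -0.54 and 0.12, and at position 4, Hoxa4, Hoxb4 and Hoxc4 were at 0.054, -0.083 and 0.58.

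**Figure D4:**
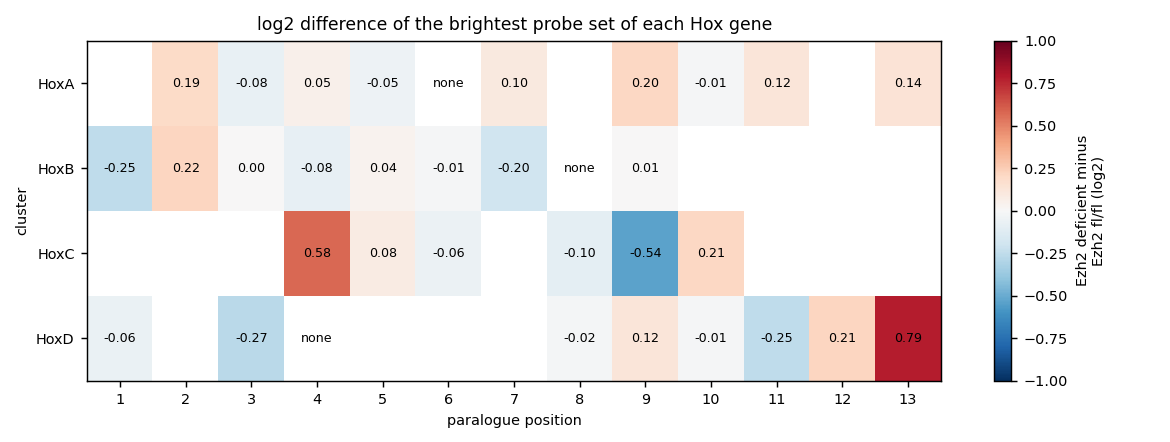
Log2 difference (Ezh2 deficient minus Ezh2 fl/fl) of the brightest probe set of each Hox member, by cluster (rows) and paralogue position (columns), with blank cells where no member lies and none where a member had no probe set of its own. The values run from -0.54 for Hoxc9 to 0.79 for Hoxd13, and colours change sign within each row and within 7 of the 12 columns with at least 2 values.

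Hox proteins bind DNA with the TALE homeodomain proteins of the Pbx, Meis and Pknox families, and their genes are kept active by the trithorax methyltransferase Kmt2a and its partners. Of 24 such genes listed, which also hold the caudal genes Cdx1, Cdx2 and Cdx4 and the binding partners Gmnn and Zbtb16, 22 were measured by 48 probe sets. Limma called 0 of these in either direction, with 2 higher and 0 lower at an unadjusted p under 0.05 (4.17%, against 6.51% of all probe sets), and their median difference was 0.012. All 9 trithorax side activators were above the floor in both groups. Kmt2d averaged 3705 ± 249 and 3724 ± 218 (log2 difference 0.0078), Psip1, which tethers Kmt2a complexes to chromatin, 2378 ± 152 and 2536 ± 59.9 (0.093), Kmt2a itself 1767 ± 277 and 1938 ± 233 (0.13), and the Hox cofactor gene Pknox1 1647 ± 266 and 1489 ± 110.2 (-0.13).

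Among the TALE genes, Pbx2 and Pknox1 were above the floor in both groups and Meis3 on deficient arrays. Meis3 had the same level in both groups, 316 ± 42.2 and 314 ± 13.6 (log2 difference 0.0014). Its value on control replicate 1, 270, lay under the floor of that array, 291. Meis1 and Meis2, the usual partners of posterior Hox proteins, were not above the floor on all arrays of either group. Neither were Pbx3, Pbx4, Pknox2 and the 3 caudal genes. The smallest p belonged to the Pbx3 probe set 1447640_s_at, at 84.8, 60.8 and 51.7 on control arrays and 160.3, 126 and 91.7 on deficient arrays (log2 difference 0.63, SE 0.22, limma adjusted p = 0.726). The other Pbx3 probe set, 1421193_a_at, averaged 63.3 ± 41.2 and 122 ± 31.9 (0.70). The Zbtb16 probe set 1419874_x_at averaged 57.7 ± 23.0 and 117 ± 38.4 (log2 difference 0.66, limma adjusted p = 0.749), while the other Zbtb16 probe sets were at 0.010 and -0.093.

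More of the genes flanking the clusters than of the Hox genes were above the floor. Of the nearest 5 protein coding genes on each side of the 4 clusters, 38 of 40 had a probe set. Of these 38, 24 (63.2%) were above the floor on all control arrays and 26 (68.4%) on all deficient arrays, against 1 of 31 Hox genes (3.23%) in each group. A gene counted where at least 1 of its probe sets passed, and the 38 genes had 84 probe sets, against 46 for the 31 Hox genes. The share over all genes is not given here, so whether the flanking genes differ from other genes was not tested. Beside the low-numbered ends lay Skap2 next to HoxA, Skap1 next to HoxB, Smug1 next to HoxC and Mtx2 next to HoxD, all above the floor in both groups. Skap1, a T cell adaptor, averaged 5339 ± 657 and 5099 ± 305 on its brightest probe set and its relative Skap2 473 ± 45.5 and 532 ± 18.7. At the high-numbered ends, the homeobox genes Evx1 next to HoxA and Evx2 next to HoxD were below the floor on all 6 arrays, Evx1 at 44.7 ± 3.87 and 67.7 ± 30.4 and Evx2 at 168 ± 53.4 and 196 ± 6.37. On the low-numbered side, the brightest probe set belonged to Hnrnpa2b1, an RNA-binding protein, beside HoxA (a mean of 11285 over the 6 arrays), to Skap1 beside HoxB, to Hnrnpa1 beside HoxC (6683) and to Nfe2l2 beside HoxD (2014). On the high-numbered side it belonged to Tax1bp1 beside HoxA (2270.3) and to the ATP synthase subunit genes Atp5g1 beside HoxB (2255), Atp5g2 beside HoxC (7901) and Atp5g3 beside HoxD (12622).

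The neighbours gave no call either. Limma called 0 of their 84 probe sets in either direction, with 2 higher and 1 lower at an unadjusted p under 0.05 (3.57%, against 6.51% of all probe sets), and their median difference was 0.031. The 3 probe sets belonged to Skap1 (1441322_at, log2 difference 0.30, limma adjusted p = 0.759), Chn1 (0.36, limma adjusted p = 0.742) and Cbx5, which encodes a heterochromatin protein (-0.20, limma adjusted p = 0.743). The brightest Skap1 probe set was at -0.060.

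**Figure D5:**
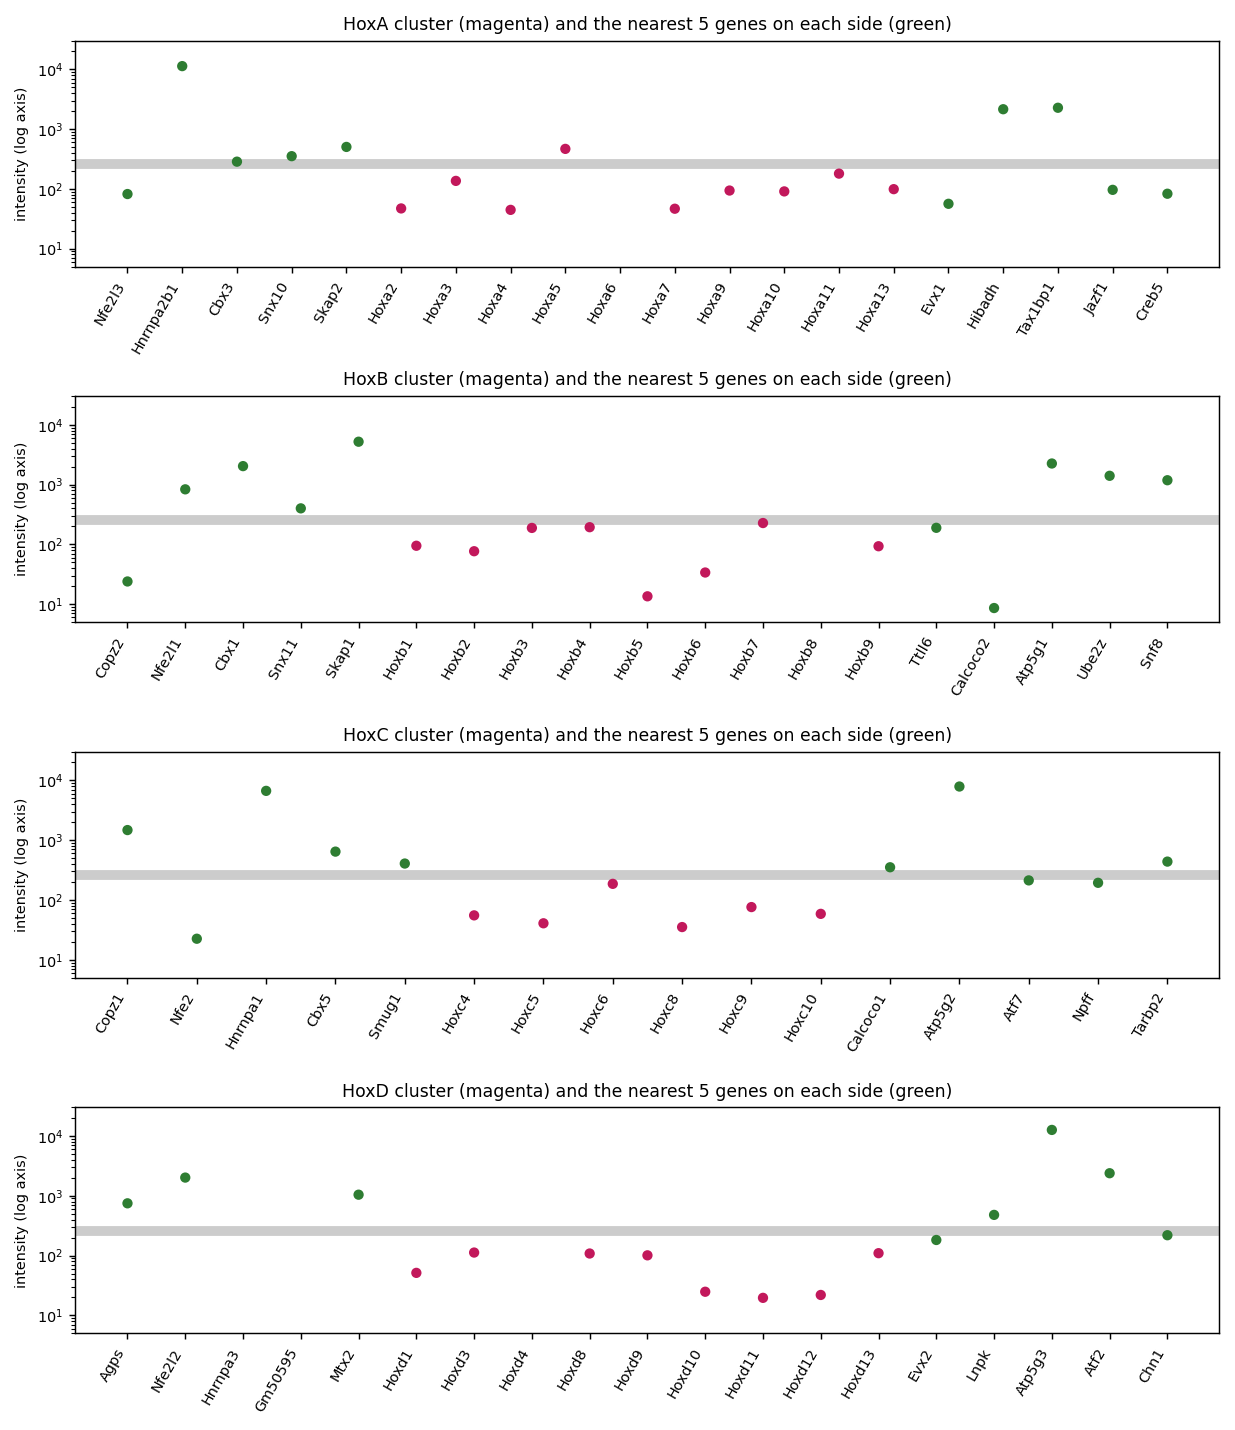
Mean normalised intensity over 6 arrays (log axis) of the brightest probe set of each gene along each Hox cluster (magenta) and of the nearest 5 genes on each side (green), in genome order but not to scale, with the range of array floors in grey and gaps for genes without a probe set. Points fall to or below the grey band within each cluster, with Hoxa5 the 1 Hox gene above it. Of the 38 flanking genes, 24 were above the floor on all control arrays and 26 on all deficient arrays.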

How the data were processed

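The files hold 1 intensity for each of 45101 probe sets and 6 arrays, which the authors deposited on a linear scale. The software that made these intensities is not given in the sources used here. Each array had, as deposited, a trimmed mean of 500.002 (2% of values left out at each end), and medians differed by 15.2%, so the arrays were quantile normalised. The log2 scale is log2(intensity + 43.3), with the 20th percentile of all positive values as the added constant. Without the 64 control probe sets, 45037 were fitted with limma 3.58.1 in R 4.3.3 (lmFit, eBayes with trend, no covariate, 4 residual degrees of freedom, two-sided), with Benjamini-Hochberg adjustment over all of them and no intensity filter, so that dim members stay in. The limma step was tested on simulated data. Platform annotation gave 34945 probe sets a single symbol, 932 several and 9160 none. RefSeq (GRCm38.p6) was used for neighbours and promoter sequences.

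The text names every member, gives the values on each array for members above the floor and the 3 of smallest p in each direction, and from the lists of cofactors and flanking genes the brightest and those of smallest p. Others, the promoters shown and the count of signs by position with its scalings were chosen after the values were seen. The members and lists were chosen with earlier results of these data known. The number of arrays limits the precision. The alternatives were the deposited scaling, median centring, the pseudocount, a filter at the 40th percentile, other eBayes settings, array weights (with statmod 1.5.0), the brightest probe set, other floors and leaving out each array.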

Additional observations from a re-analysis of the deposited data

How the results depend on the processing

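The count of 0 Hox probe sets called by limma and the direction of Ezh2 were the same under every alternative tried for them, with Ezh2 from -1.28 to -1.05 with an array left out and its adjusted p from 0.0705 (filter at the 40th percentile) to 0.654. The 3 probe sets at an unadjusted p under 0.05 became 0 with that filter, which drops all 3 and keeps 10 Hox probe sets, 1 with the brightest probe set of each gene, and 1 to 4 with an array left out. Of all probe sets, 7.22% had such a p with the filter and 5.44% to 6.97% with an array left out. The 6 probe sets without overlap became 0 with the filter and 8 to 11 with an array left out, where 21.5% to 23.2% of all probe sets did not overlap. The median Hox difference was -0.061 under the deposited scaling, -0.069 with the filter, 0.0047 over genes, and -0.036 to 0.037 with an array left out. The median over all probe sets was -0.026 under the deposited scaling and -0.0029 with the filter. With median centring the Hox median was -0.0032 and that of all probe sets 0.036. The floor alternatives gave 0 genes in each group (99th percentile of silent genes) or 7 in each (40th percentile of all probe sets, which most probe sets exceed by construction), 6 of them shared. The number of genes above the floor was 1 in each group in every run that left out an array. No paired analysis was possible because the numbers in the titles run on from the first group to the second and none is shared. Signal near the floor limits what dim members can show.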
